A study of Homo sapiens with 28 samples.

Results

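Of the 18012 accessible regions that lay on an annotated gene start, 4861 (27.0%) were open in some myeloma lines only: they were called as a peak in 5 to 17 of 22 untreated cell lines. These switching promoters were selected on the peak calls of the same 22 libraries, out of 154985 autosomal regions in all, so the number of lines in which each was open is a description and not a finding. They belonged to 4491 of the 15247 genes that had a region at a start (29.5%), and 337 gene symbols had more than 1 such region. The data are ATAC-seq of cultured human multiple myeloma lines, an assay that reads out where a transposase can reach the DNA between nucleosomes. Each of the 22 lines was assayed once without drug, and 6 of them (KMS27, Karpas620, L363, MM1S, OPM2 and RPMI8226) were assayed once more with lenalidomide, labelled 10 uM and day 3, which made 28 libraries. All groups are established lines in culture, and no line had a replicate library, so every spread given here is a spread between lines. A region was called open in a line when that library's own peak table held a value above 0 there, and closed otherwise, so that closed means not called and not the absence of reads.

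A gene start is opened when transcription factors and remodelling enzymes displace the nucleosomes over it, and in most human cells the starts of housekeeping genes, which lie in CpG islands, remain accessible whatever the cell does. The starts that differ between cells of a type are mainly those of genes for lineage, adhesion, signalling and immune functions. Myeloma is a tumour of plasma cells, the antibody-secreting end stage of the B lineage, in which the genome is much rearranged, and lenalidomide directs the ubiquitin ligase cereblon to the lymphoid transcription factors IKZF1 and IKZF3.

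The starts of a gene that told groups of lines apart and of an immune gene that differed by line are shown. Each sequence runs over the 200 bases before the start the authors' annotation gave, 5′ to 3′ on the gene's strand, read from GRCh37. CDH2 (chr18:25757411-25757610, minus strand), which encodes N-cadherin, is shown because it was open in a branch of the lines described further on, with each CG dinucleotide in capitals. The start of the interferon-stimulated gene IFIT1 (chr10:91152103-91152302, plus strand) is shown with the core of an interferon response element (GAAA, any 2 bases and GAAA) in capitals, here on the other strand.
CDH2: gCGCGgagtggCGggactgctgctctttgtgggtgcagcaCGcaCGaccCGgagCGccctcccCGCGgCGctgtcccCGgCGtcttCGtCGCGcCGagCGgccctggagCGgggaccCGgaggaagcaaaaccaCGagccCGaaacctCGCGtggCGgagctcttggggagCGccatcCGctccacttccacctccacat
IFIT1: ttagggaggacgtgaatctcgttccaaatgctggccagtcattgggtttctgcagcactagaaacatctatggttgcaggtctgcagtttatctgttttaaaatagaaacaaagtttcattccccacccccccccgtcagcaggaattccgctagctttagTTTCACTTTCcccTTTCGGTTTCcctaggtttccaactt
The shown bases of CDH2 held 26 CG, and the core stood in those of IFIT1 at 2 places. The start given for IFIT1 matched a transcript start in the gene annotation used here, and that for CDH2 did not.

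The libraries differed in depth, with 1599857 (PE1) to 5564534 (H1112) counts over the regions, and the number of switching promoters called open followed it. From 1370 of the 4861 were open in PE1 to 3482 in KMS20, with a median of 2258, and Spearman's rho with total counts over the 22 lines was 0.90. With open set instead at 5 CPM or more, where CPM is a count scaled to a common library total over the regions, 2632 (KMS27) to 3561 (KMS20) were open and rho was 0.13. Read depth therefore moved with how many calls a line had, and its part in any single call was not tested. Accessibility is given here as CPM, which does not scale with depth, and lines are compared on that scale wherever a gene is named.

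**Figure D1:**
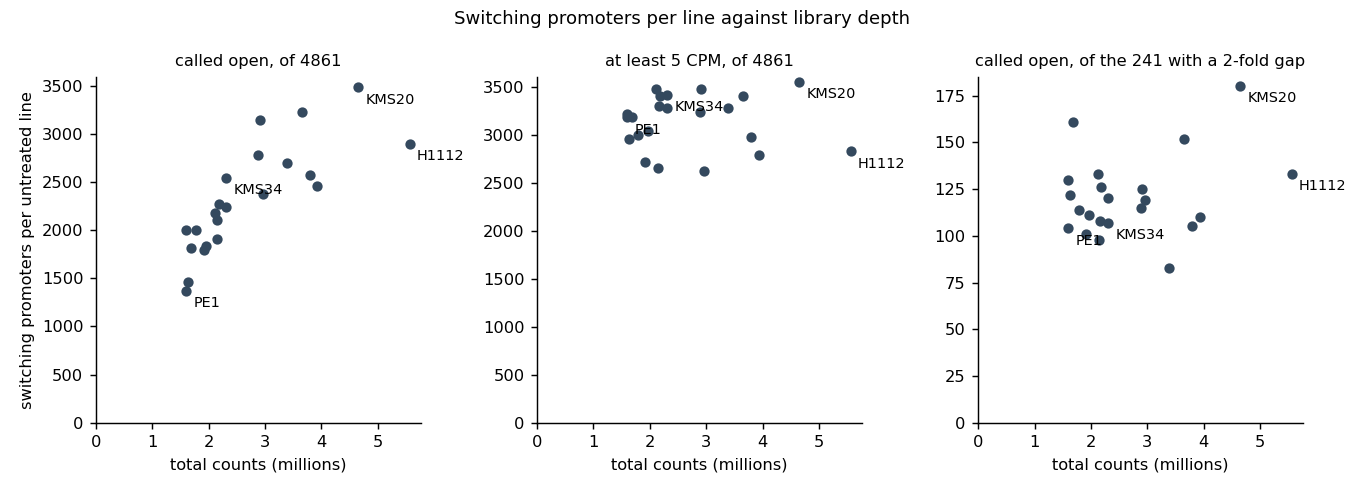
Number of switching promoters open in each untreated line against its total counts, 1 point per line, by peak call (left), by at least 5 CPM (middle) and for the 241 promoters with a 2-fold gap between open and closed lines (right). The called number rises from 1370 in PE1 to 3482 in KMS20, while the middle and right panels show no such slope.

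The libraries of KMS34 and PE1 stood apart from the rest by being alike. Only 50 of the 4861 promoters were 4-fold or more apart between them on the log2(CPM + 1) scale, against 633 to 1663 (median 1132) in all other pairs of untreated lines and 1 to 32 (median 8) between the untreated and lenalidomide libraries of a line. Their chi-square per promoter on the counts was 2.52, against 1.91 to 2.69 for libraries of a line and 10.2 to 35.6 for the other pairs of lines. Both also lacked counts over the same run of 5 starts on chromosome 12 (OSBPL8, ZDHHC17, CSRP2, E2F7 and RP1-34H18.1; chr12:76952523-77719099), with 1 count in KMS34 and 0 in PE1 where the median CPM of the lines gave 635 and 440. Whether they are cells of a common origin cannot be told from the labels, which name them as separate lines. The number and share of switching promoters, the grouping of the lines and the rank of KMS12BM and KMS12PE are given also with either left out. Values of single genes and gene lists are given with both. The number of switching promoters was then 4701 without KMS34 and 4611 without PE1, both counted over 5 to 16 of 21 lines.

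Plasma cell genes were mostly open at a start. Of 15 plasma cell genes with a region at a start, 12 were open in at least 18 lines and the other 3 in 4 or fewer. Of all 15217 gene symbols with a region at a start, 8194 were open in at least 18 lines. Among the 12 were XBP1 and IRF4, factors of the secretory programme, the surface proteoglycan SDC1 and the BCMA receptor gene TNFRSF17. A line had 8 (PE1) to 14 (H1112) of the 15 open. Of 23 B cell genes 9 (KMS27) to 19 (Karpas620) were open per line. At their most open start, 6 of them were open in at least 18 lines, among them CD72, BCL6 and CD83. Another 8 were open in 4 or fewer, among them CD22, CD79A and MS4A1, which encodes CD20. Markers of other lineages were open in part, with a range of 1 to 9 of 16 T and NK cell genes, 0 to 4 of 9 myeloid genes, 1 to 5 of 9 stromal and epithelial genes and 1 to 4 of 5 erythroid and megakaryocyte genes per line.

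Start regions fell into 2 heaps by the number of lines in which they were open, with the switching promoters spread thinly between. While 5295 (29.4%) were open in all 22 lines, 3218 in 18 to 21 and 4638 in 0 to 4, only 0.641% of the 136973 regions away from a start were open in all 22, and 28371 of those (20.7%) were open in 5 to 17. The rule cut through a continuum: 584 start regions were open in 4 lines, with a median of 2.23 CPM over all lines, and 526 in 5 lines, with 2.80 CPM. At the upper edge, 386 were open in 17 lines, at 16.3 CPM, and 485 in 18, at 18.9 CPM. A switching promoter had a median of 14.9 CPM in its open lines and 3.25 CPM in its closed lines, with a median SD over lines of 1.17 on the log2(CPM + 1) scale. The always-open starts had 46.3 CPM and an SD of 0.49. Only 4.94% of the closed values were 0 counts.

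**Figure D2:**
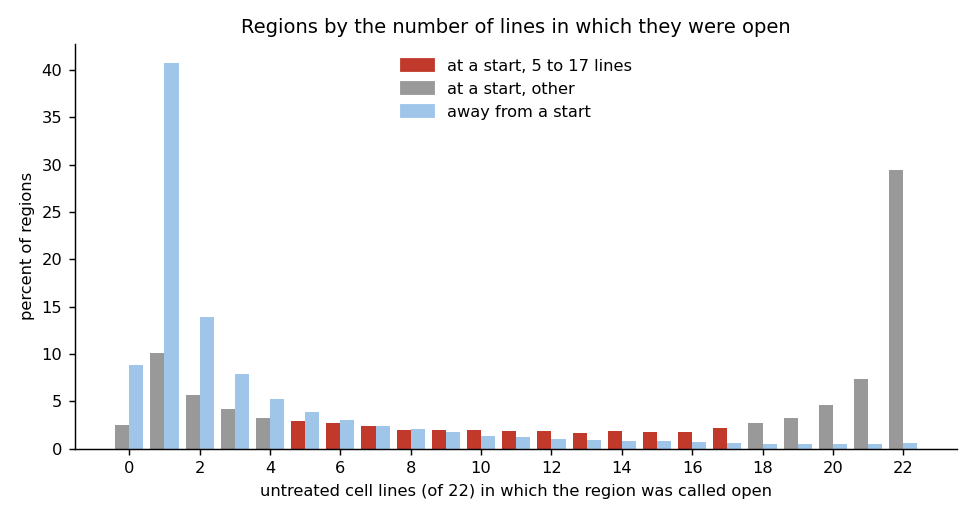
Percent of regions (vertical axis) open in each number of the 22 untreated lines (horizontal axis), for regions at a start (red for 5 to 17 lines, grey otherwise) and away from a start (blue). Starts pile up at 22 lines (29.4%), whereas 0.641% of the other regions do.

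The switching promoters were poorer in CpG than the always-open ones. From 250 bases before the start to 50 after it, they held a median of 18 CG (quartiles 6 and 31) and 61.7% G or C, against 27 CG (20 and 33) and 65.7% for starts open in all 22 lines and 8 CG (3 and 21) for those open in 0 to 4. An observed-to-expected CpG ratio of at least 0.6, as in a CpG island, was found in 55.3% of them, against 91.3% and 33.9%. The share rose with the number of lines, from 45.9% for 5 to 8 lines to 56.3% for 9 to 13 and 66.5% for 14 to 17. Protein-coding genes made up 72.9% of the switching promoters and 86.0% of the always-open ones, and long non-coding RNAs 16.9% and 9.61%. The share of starts that switched ran from 24.0% on chromosome 7 to 38.8% on chromosome 22.

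Short sequence motifs differed in the same manner. The GC box GGGCGG, bound by SP1, stood in 51.7% of the switching promoters, in 73.1% of the always-open ones and in 57.1% of all starts, counted on both strands over the same stretch. CCGGAAG, bound by ETS factors, stood in 9.03%, 21.1% and 13.1%, CCAAT in 29.6%, 38.6% and 32.5%, the NRF1 letters GCATGCGC in 2.26%, 6.12% and 3.68%, and CACGTG, the E-box of MYC and its relatives, in 7.16%, 9.48% and 8.37%. The cAMP response element TGACGTCA stood in 1.89%, 3.89% and 2.33%. The opposite order held for TATAAA, with 7.94%, 3.81% and 7.03%, for the AP-1 site TGACTCA, with 5.57%, 1.96% and 4.76%, and for the interferon response core, with 5.51%, 2.29% and 4.17%. In starts open in 0 to 4 lines, TATAAA stood in 11.2%, TGACTCA in 8.06% and the interferon response core in 5.30%. GGGCGG stood in 35.9% of those and CCGGAAG in 4.98%. For all of these but the interferon response core, the switching promoters lay between them and the always-open starts. No motif of these contains another, and a match describes the sequence without showing that a factor was bound.

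A call can switch because accessibility hovers about the caller's limit or because the lines fall into clearly high and low ones. In 1195 of the 4861 switching promoters (24.6%) the lowest open line had more CPM than the highest closed line, against 24% of all regions open in 5 to 17 lines, so this share was near the background. A gap of at least 2-fold on the CPM + 1 scale between lowest open and highest closed line was found in 241, of 239 gene symbols. These had medians of 27.5 CPM in open and 1.25 CPM in closed lines, and 32 had a gap of at least 4-fold. For these gaps the share over all regions open in 5 to 17 lines was not counted, so nothing is read from the counts. Over the 241, a line had 83 (OCIMY5) to 180 (KMS20) open, with a median of 117, and rho with total counts was 0.12.

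The 10 promoters with the widest gap were of protein-coding genes, long non-coding RNAs and pseudogenes. TCF4, the E protein that partners with lineage factors in B cells, has several starts, of which that at chr18:53331576-53333431 was open in 8 lines (H1112, KMS12BM, KMS12PE, KMS20, KMS21BM, KMS27, U266 and XG-6). There the open lines had from 51.9 to 176 CPM with a median of 75.9, and the 14 others from 0.465 to 6.11 with a median of 2.81. A second switching start of TCF4 (chr18:53255282-53256126), also open in 8 lines, had overlapping open and closed lines, and another start was open in at least 18 lines. Part of the region repeats elsewhere, since 5 of 7 stretches of 32 bases spread over it occurred once in the genome.

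TRIM58, an E3 ubiquitin ligase gene known from red cell maturation, was open in 10 lines at chr1:248020177-248021705. The open lines, KMS11, KMS18, KMS21BM, KMS26, KMS28, KMS34, LP1, OPM2, PE1 and RPMI8226, ranged from 36.9 to 116 CPM with a median of 68.4. The closed lines ranged from 0.273 to 4.38 CPM with a median of 2.04, so the groups were far apart. The gap did not depend on KMS34 or PE1, which stood at 80.5 and 60.0 CPM inside the open range.

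NAA11 (chr4:80246606-80247498) encodes an N-terminal acetyltransferase of the germ line. It was open in H1112, KMS12BM, KMS12PE, KMS21BM and XG-6, at 34.2 to 54.5 CPM with a median of 36.2, and the other lines had 0.59 to 3.83 CPM. MIR181A2HG, the host transcript of a miR-181 cluster (chr9:127420346-127421019), was open in KMS18, KMS27, OCIMY5, PCM6, U266 and XG-6 at 12.5 to 19.1 CPM with a median of 13.7. The 16 other lines had 0 to 0.694 CPM, and 7 of them had 0 counts. A sarcomere gene, MYOM2, was open at 1 of its 3 switching starts in all lines but KMS12BM, KMS12PE, KMS26, L363 and OCIMY5, at 22.8 to 145 CPM with a median of 55.2, against 0.51 to 1.83 CPM in those 5. The long non-coding RNA RP11-933H2.4 completed the 10 with the widest gaps, being open in 7 lines with a gap of 2.76 on the log2 scale.

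Some of the widest gaps had lines without any count. CDKN2C encodes the CDK inhibitor p18, which holds CDK4 and CDK6, and its start (chr1:51433660-51434771) was open in 13 lines at 16.1 to 72.7 CPM with a median of 49.1. In the 9 closed lines it had 0 counts in Karpas620, KMS12PE, KMS20, KMS26, OCIMY5, OPM2 and XG-6, 2 counts in MM1S and 3 in RPMI8226. The start of the neighbouring gene FAF1, a few kilobases away (chr1:51425631-51426411), was closed in the same lines except KMS12PE, which had 90 counts there. In the lenalidomide libraries of Karpas620, MM1S and OPM2 the CDKN2C start had 0 counts, and that of RPMI8226 had 2. OCIMY5 lacked counts over a longer run, from SPATA6 through FAF1 to CDKN2C, with 2 counts where 233 were given by the median of all lines.

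The pseudogenes HLA-K and HLA-H of the MHC class I region switched together. HLA-K (chr6:29893993-29895241) was open in 14 lines at 12.7 to 46.8 CPM with a median of 29.9, and in the 8 closed lines, KMS11, KMS21BM, KMS28, KMS34, MM1S, OPM2, PCM6 and PE1, it had 0 to 0.343 CPM. HLA-H (chr6:29855126-29856479) was closed in the same 8, at 0 to 1.79 CPM, and open in the same 14, at 17.7 to 55.5. By phi, the correlation of open calls over the 22 lines, HLA-H was the most like HLA-K at 1, followed by the RNA helicase DHX33 at 0.81 and RP11-385J1.2 at 0.80. Of 7 stretches of 32 bases spread over each region, 7 in HLA-K and 6 in HLA-H occurred once in the genome, and the part of sequence differences between people was not tested.

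Among genes known for common whole-gene deletions in human populations, all 3 of those listed with a start region had a switching promoter, against 29.4% of all genes. GSTT1, a glutathione transferase, was open in 6 lines and had 0 counts in 11, and its neighbour AP000351.10 (chr22:24372175-24373349) was open in 11 lines at 10.6 to 56.0 CPM and had 0 counts in 10. The next gene, CABIN1, was open in all 22. GSTM1, a related transferase, was open in Karpas620, KMS20, KMS21BM, LP1 and U266 and had 0 counts in 12. APOBEC3B, a DNA cytidine deaminase, was open in 10 lines, but its open and closed lines overlapped, and 1 line had 0 counts.

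Other switching promoters were empty in some lines too. They were selected to be closed in part of the lines, so low counts there are built in. Of the closed values of switching promoters 4.94% were 0 counts. The share was 3.93% for regions away from a start open in 5 to 17 lines and 14.6% for starts open in 0 to 4. Of the 4861 promoters, 1553 had 0 counts in at least 1 line and 54 in at least 5. A group of 486 combined 0 counts in at least 2 lines with a median of 10 CPM or more in the open lines. Of these 486, 253 had no overlap between open and closed lines, a share that was not counted over all regions. Within this group, 25 were empty in at least 5 lines, among them the receptor genes FGFR2 and ROR2, the homeobox gene LHX2, the T cell factor GATA3, the kinase ABL1 and the tubulin TUBA3C. Runs of at least 3 neighbouring starts with at most 3 counts each in a line, where the median over lines was 10 CPM or more, numbered 28 in 15 lines and held 52 switching promoters. The longest was in KMS20 on chromosome 11 (chr11:98891194-102963371), where 8 starts, among them YAP1 and the apoptosis inhibitors BIRC2 and BIRC3, had 0 counts and 2034 were given by the median. Copy number was not measured in these files, so closed chromatin and absent DNA cannot be told apart at such starts.

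The promoters with the largest SD over the lines had intermediate levels as well as extremes. ADPRHL1, a gene of heart muscle (chr13:114103047-114104134), was open in 14 lines at 12.2 to 255 CPM with a median of 62.3 and closed in 8 at 0 to 3.78, for an SD of 2.71 on the log2(CPM + 1) scale, just above that of CDKN2C at 2.70. ARRDC4, an arrestin-like gene that answers to glucose (chr15:98503337-98504223), was open in 15 lines at 7.89 to 202 CPM with a median of 62.0, and 7 lines had 0 to 1.39. The closed lines were KMS28, OCIMY5, H1112, KMS12PE, PCM6, U266 and XG-6.

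TBX3, a T-box repressor of limb and breast development (chr12:115121683-115122899), was open in 12 lines at 16.4 to 117 CPM with a median of 56.9, highest in PCM6 and LP1, and had 0 to 4.17 CPM in the others. ROBO1, a guidance receptor for SLIT proteins (chr3:79067783-79069092), was open in 14 lines at 28.7 to 98.1 CPM with a median of 75.9 and had 0 to 5.19 CPM in the others. HIST3H2A, a histone gene on chromosome 1 (chr1:228644968-228647151), was open in 14 lines at 29.0 to 232 CPM with a median of 85.8, and had 0.93 to 4.59 CPM in L363, OPM2, MM1S, LP1, XG-6, KMS11, KMS26 and PCM6. None of these open groups overlapped its closed group. The long non-coding RNA genes AC010729.1 and RP11-308B16.2, open in 12 and 10 lines, and CDKN2C, HLA-K and TRIM58 completed the 10 promoters with the largest SD.

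Genes of the B lineage were partly among the switching promoters. Of 23 B cell genes with a start region, 10 had a switching promoter, against 29.4% of all genes. CR2, the complement receptor of B cells (chr1:207627346-207628581), was open in 16 lines at 14.1 to 102 CPM with a median of 41.1, and closed in Karpas620, KMS12BM, KMS12PE, KMS27, L363 and PCM6 at 2.79 to 12.5. BANK1, a scaffold of B cell receptor signalling, had 3 switching starts, open in 17, 11 and 7 lines. IRF8, FCRLA, CD79B, CXCR5, BACH2, BCL11A, RASGRP3 and SWAP70 made up the rest, of which FCRLA, RASGRP3 and SWAP70 had open lines wholly above closed lines. Of 15 plasma cell genes only PRDM1, the master repressor of the B cell programme, had one, at a start open in 8 lines whose CPM of 10.8 to 32.5 overlapped the 1.04 to 22.5 of the closed lines, and another start of it was open in at least 18 lines.

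Genes of MHC class II, which presents antigen, were often among those with a switching promoter. Of the 13 genes, 9 had one (69.2%, against 29.4% of all genes), in all 10 regions, while the start of the activator CIITA was open in at least 18 lines. Presentation itself was not measured. CD74, the invariant chain that guards the class II groove (chr5:149791935-149792899), was open in 16 lines at 23.7 to 97.6 CPM with a median of 45.3. In the 6 closed lines, H1112, KMS28, KMS34, OPM2, PE1 and XG-6, it had 0 to 11.1 CPM, so the groups did not overlap. The antigen-binding chains were lower and graded: HLA-DRA was open in 15 lines at 4.07 to 19.6 CPM with a median of 7.44, and its 7 closed lines had 0.789 to 10.4. Summed over the 10 regions, accessibility ran from 55.8 CPM in OPM2, 61.3 in PE1 and 65.3 in KMS34 to 209 in LP1 and 252 in KMS18, with a median of 119, and 1 (OPM2) to 10 (KMS12PE and KMS27) were called open. HLA-DPA1, HLA-DPB1, HLA-DQA1, HLA-DQB1, HLA-DRB1, HLA-DMA and HLA-DMB had overlapping open and closed lines. Their sequences differ between people, and the part of this was not tested.

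Of 33 interferon-stimulated genes with a start region, 15 had a switching promoter (45.5%, against 29.4% of all genes), in 16 regions, and 15 had their most open start in at least 18 lines. IRF7, the interferon-inducible regulator (chr11:615315-616359), was open in 16 lines at 16.7 to 46.9 CPM, and closed at 0 to 10.4 in KMS26, KMS28, KMS34, OPM2, PE1 and XG-6. IFIT1, which binds foreign RNA caps (chr10:91151753-91153107), was open in 16 lines at 9.02 to 73.8 CPM with a median of 26.9, and had 1.84 to 9.69 in the others, a slight overlap. Summed over the 16 regions, accessibility ran from 110 CPM in L363 and 115 in KMS12BM to 292 in PE1 and 309 in PCM6, with 2 (L363) to 16 (KMS20) of them called open.

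Adhesion, homing and surface receptor genes had a switching promoter in 19 of 44 cases (43.2%, against 29.4% of all genes), and in 17 of them it was the gene's most open start. MET, the receptor of hepatocyte growth factor (chr7:116363779-116364628), was open in Karpas620, KMS20, KMS21BM, U266 and XG-6 at 7.31 to 55.9 CPM with a median of 36.8, and had 0.919 to 5.60 in the others. Another start of MET was open in all 22 lines. ITGA8, an integrin chain (chr10:15760770-15762452), was open in 17 lines at 11.2 to 98.1 CPM, and closed at 0 to 4.94 in Karpas620, KMS12BM, KMS12PE, KMS20 and KMS21BM. IGF1R, the receptor of insulin-like growth factor 1, had starts open in 15 and 11 lines, the first of which (chr15:99495365-99496716) had open lines at 14.5 to 90.3 CPM and closed lines at 1.39 to 6.19. The co-stimulatory ligand CD70 was open in 16 lines at 7.29 to 54.4 CPM and closed in 6 at 0.522 to 4.38. By contrast, the open and closed lines of the hyaluronan receptor CD44, the selectin ligand SELPLG and the adhesion molecule ICAM1 overlapped.

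Genes of other lineages were open in some lines. TWIST1, a mesenchymal repressor, was open at the more open of its switching starts (chr7:19156832-19157597) in 10 lines at 11.9 to 39.0 CPM, and had 0 to 3.78 in the other 12. EPCAM, an epithelial adhesion molecule (chr2:47596103-47597353), was open in 9 lines at 10.1 to 66.8 CPM and had 0 to 6.11 in the others. GATA3, a factor of T cells (chr10:8096345-8096817), was open in H1112, KMS26, KMS27, L363 and PCM6 at up to 31.1 CPM with a median of 19.2, and had 0 to 9.55 in the others, with 0 counts in 6. In all, 8 of 16 T and NK cell genes, 5 of 9 stromal and epithelial genes, 3 of 9 myeloid genes and 3 of 5 erythroid and megakaryocyte genes had a switching promoter, against 29.4% of all genes. The T cell chains CD3E and CD3G, the kinase LCK and the myeloid factor SPI1 were open in 4 lines or fewer, whereas CD8A, a T cell co-receptor, and COL1A1, a collagen chain, were open in 21.

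Of the loci that myeloma rearranges or silences, some switched. Among 16 translocation partners and MAF targets, 9 had a switching promoter, against 29.4% of all genes. MAF, a basic leucine zipper factor (chr16:79634240-79635382), was open in 14 lines at 11.2 to 86.8 CPM but had up to 54.4 in a closed line, PE1, whose library is the least deep. Of 16 cyclins and CDK inhibitors, 6 switched (37.5%), CDKN2C with the clearest gap, and of 13 tumour suppressors deleted in myeloma 3 did (23.1%), namely CDKN2C, FAF1 and TRAF2, the last of which had another start open in 20 lines. Of 23 genes often DNA-methylated in myeloma, 9 switched (39.1%). Among them SPARC, a matrix protein (chr5:151066176-151066985), was open in Karpas620, KMS12BM, KMS12PE, KMS20, L363 and MM1S at 8.68 to 21.9 CPM against 0 to 3.67. The starts of all 5 Wnt antagonists measured were open in 4 lines or fewer, so none was among the switching promoters.

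Clustered gene families were unequal. Of 203 zinc finger genes on chromosome 19, which encode mostly KRAB repressors, 89 had a switching promoter (43.8%, against 29.4% of all genes), in 96 regions, and 42 of these had open lines wholly above closed lines, against 24.6% of all switching promoters. ZNF471 (chr19:57018855-57019639) was open in H1112, KMS11, KMS21BM, KMS26, KMS34 and PE1 at 13.4 to 47.6 CPM with a median of 20.1 and had 0 to 2.61 in the others. ZNF439 (chr19:11959248-11959964) was open in KMS12BM, KMS12PE, KMS20, KMS27, LP1 and U266 at 10.4 to 31.2 CPM and had 0 to 2.43 in the others. Of 32 clustered protocadherin genes, 10 switched and the other 22 were open in 4 lines or fewer, and 5 of 18 HOX, MEIS and PBX genes switched, as did 3 of 17 germline genes, PRAME, SOHLH2 and MOV10L1. Housekeeping families seldom did: 5 of 63 ribosomal protein genes and 4 of 33 proteasome genes had a switching promoter.

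Over all switching promoters, the lines resembled each other little. Phi between the calls of 2 lines had a median of 0.0758 over all pairs and ran from -0.136 (KMS12BM and PE1) to 0.483 (KMS34 and PE1). The next pairs were KMS12BM and KMS12PE at 0.333, which are known as lines of 1 patient, KMS27 and L363 at 0.287, KMS11 and LP1 at 0.276 and KMS28 and LP1 at 0.262. For 18 of the 22 lines the nearest line was the same by the Spearman correlation of log2(CPM + 1), and for 12 it was the same by calls at the 28371 regions away from a start. Over all pairs, phi at switching promoters and phi at those regions had a rho of 0.78, a description in which both values share their libraries and depth.

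Average-linkage clustering of 1 minus phi split the lines into a branch of 9, KMS11, KMS18, KMS26, KMS28, KMS34, LP1, MM1S, OPM2 and PE1, and a branch of the 13 others. Median phi was 0.197 within the 9 (0.0987 to 0.483, 36 pairs), 0.105 within the 13 (-0.0556 to 0.333, 78 pairs) and 0.0432 across (-0.136 to 0.208, 117 pairs), so the ranges overlapped. The same 9 lines came together with open set at 5 CPM and with the correlation of log2(CPM + 1), and the remaining 8 did when KMS34 or PE1 was left out, with a median phi of 0.195 and 0.20. Over the 241 promoters with a 2-fold gap, L363, OCIMY5 and RPMI8226 joined the 9 and left a branch of 10. Over the regions away from a start the smaller branch was Karpas620, KMS12BM, KMS12PE, KMS20, KMS21BM, U266 and XG-6. The labels put the lines in no groups, so these branches rest on the values themselves. The branch of 9 had total counts of 1599857 (PE1) to 2912946 (MM1S), and the branch of 13 had 1602855 (XG-6) to 5564534 (H1112). The part of depth in the split was not tested.

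**Figure D3:**
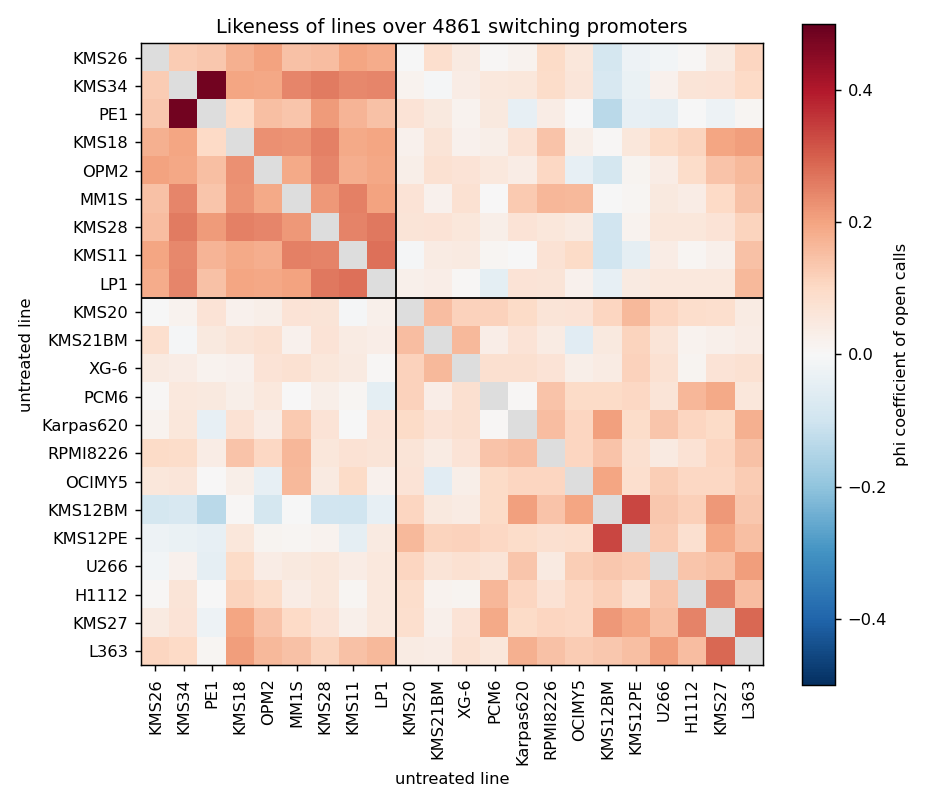
Phi coefficient of the open calls over the 4861 switching promoters for each pair of untreated lines, in the order of the clustering, with black lines between the branch of 9 and the branch of 13. The pair of KMS34 and PE1 is the darkest at 0.483, and values across the branches lie between -0.136 and 0.208.

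Both directions were found among the switching promoters that told the branch of 9 from the branch of 13. As the branches were made from these values, the differences describe the split and carry no test, and the genes named for them were chosen after their values were seen. In the branch of 9, 214 switching promoters were 4-fold or more higher on average on the log2(CPM + 1) scale, and 115 in the branch of 13 (202 and 104 without KMS34, 212 and 104 without PE1). Of all regions, 0.545% and 0.217% were so. For 15 switching promoters every line of the 9 was above every line of the 13, and for 1, WDR72, below, also with either of KMS34 and PE1 left out, against 0.0536% and 0.00387% of all regions. The switching promoters were selected to vary between the lines, so nothing is read from these shares.

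CDH2, which encodes N-cadherin (chr18:25756980-25757711), had 17.5 to 40.2 CPM with a median of 29.3 in the 9 lines and 0.273 to 9.45 with a median of 0.93 in the 13. It was highest in MM1S and lowest of the 9 in PE1, and KMS20 and RPMI8226 were the highest of the 13, below all of the 9. KLF4, a zinc finger factor that halts the cell cycle in B cells (chr9:110251872-110252785), had 13.1 to 52.7 CPM with a median of 29.4 in the 9, and 0 to 8.03 in 12 of the 13. The exception was Karpas620, at 61.1 CPM the highest of all lines. NR2F2, the orphan nuclear receptor COUP-TFII (chr15:96873435-96874269), had 10.4 to 73.4 CPM with a median of 20.9, against 0 to 3.57 in the 13 apart from PCM6 at 14.9.

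The largest difference was at WWC2-AS2, an antisense transcript (chr4:184019457-184020527), with 29.7 to 88.6 CPM and a median of 45.4 in the 9 against 0 to 20.2 in the 13. KHDRBS2, an RNA-binding protein of neurons (chr6:62995506-62996597), had 48.4 to 84.7 CPM against 0 to 27.4, with medians of 60.0 and 2.89. VEGFC, the lymphatic growth factor, had 23.8 to 47.7 CPM against 0.430 to 19.6. None of these 3 overlapped between the branches. The axon receptor EPHA7 (chr6:94128977-94129746), with 22.4 to 81.9 CPM in the 9 and a median of 2.16 in the 13, reached 47.6 in KMS27, and the potassium channel KCNN2 (chr5:113696814-113698323), with 19.8 to 88.0 CPM in the 9 and a median of 2.54 in the 13, reached 107 in KMS21BM.

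The other starts without overlap that were higher in the 9 were those of GRID1, SOX6, EPB41L3, RNF152, DAB1, LYPD6, LIMCH1, MCTP1, GDAP1, ZNF462 and PCSK5. GRID1 is a glutamate receptor subunit, DAB1 an adaptor of reelin signalling, and SOX6 a factor of cartilage and red cells. PCSK5, a proprotein convertase, was also high in part of the 13, with 74.0 to 104 CPM against 0.547 to 67.8.

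By average difference and by overlap, fewer starts were higher in the branch of 13 than in the 9. By calls, 43 switching promoters were open in no line of the 9 and in at least 9 lines of the 13. Open in all of the 9 and in at most 2 lines of the 13 were 10. These counts too describe the split and carry no test. CHRM3, a muscarinic acetylcholine receptor, has 3 switching starts, of which that at chr1:239571253-239572217 had 0 to 2.61 CPM with a median of 1.22 in the 9 and 2.36 to 113 with a median of 30.7 in the 13, highest in KMS27 and U266. WDR72, a gene of enamel formation (chr15:53976404-53977143), had 0 to 1.83 CPM in the 9 and 2.70 to 57.8 with a median of 21.9 in the 13, but only 2 of 7 stretches of 32 bases over this region occurred once in the genome, so the origin of its reads is uncertain. DSCR4 on chromosome 21 (chr21:39493028-39494041) had 0 to 3.71 CPM against 1.47 to 53.6. The non-coding RP11-308B16.2 (chr5:12574009-12575185) had the largest difference in this direction, with 0.561 to 2.61 CPM against a median of 67.5, highest in XG-6 and lowest in L363 at 1.53, and 4 of its 7 stretches occurred once. TCF4, described above, had 1.68 to 6.11 CPM in all of the 9 and was open in 8 of the 13.

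The CpG content around these starts was mostly higher in those high in the 9, with some overlap between the 2 directions. Among those named as higher in the 9, WWC2-AS2 held 49 CG, NR2F2 42, CDH2 38, KLF4 36, KCNN2 27, EPHA7 24 and KHDRBS2 17. Among those higher in the 13, TCF4 held 29, RP11-308B16.2 27, DSCR4 13, CHRM3 7 and WDR72 5. The other starts with the largest differences held 21 (AC108142.1) to 33 (DLC1) CG when higher in the 9. When higher in the 13, they held 5 (RP11-776H12.1) to 19 (CSMD1). No test was made.

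**Figure D4:**
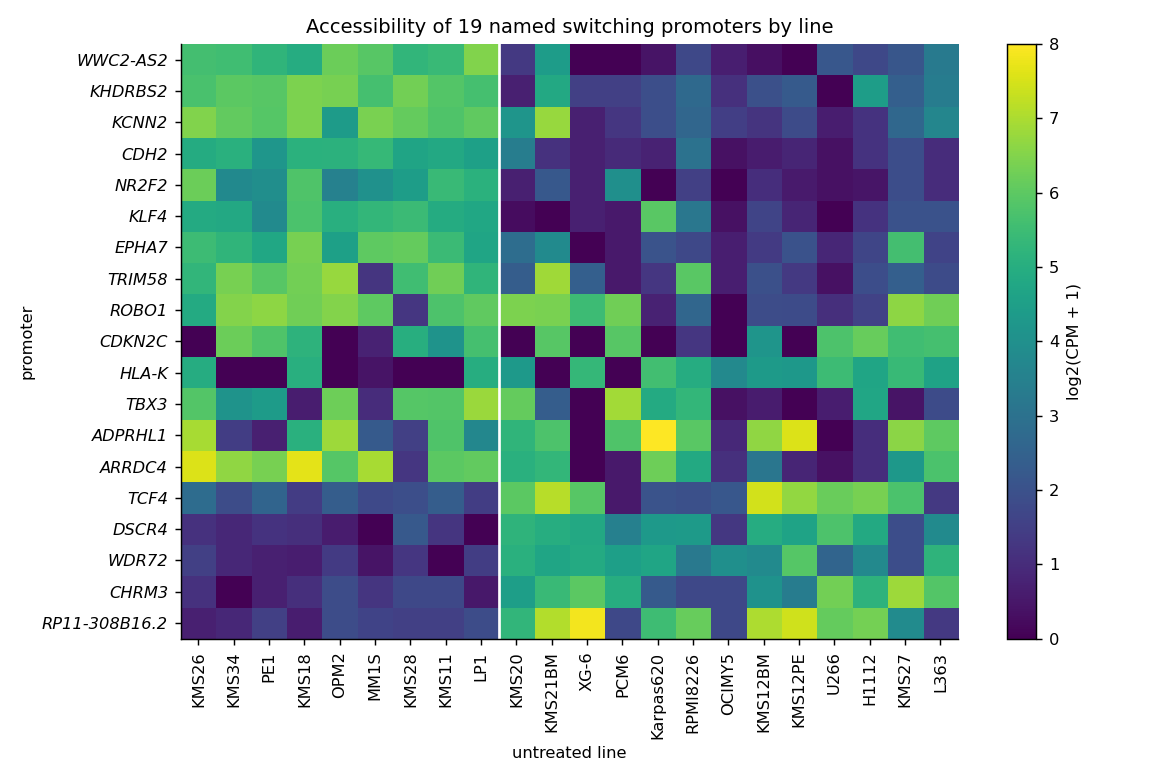
Accessibility, as log2(CPM + 1) on a colour scale, of 19 named switching promoters (rows) in the 22 untreated lines (columns, in the order of the clustering), with a white line between the branch of 9 (left) and the branch of 13 (right). CDH2 is at 17.5 CPM or more in the 9 lines and at most 9.45 in the 13, and CHRM3 at most 2.61 in the 9.

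KMS12BM and KMS12PE were nearest to each other, yet 1621 of the 4861 promoters had different calls in them and 673 were 4-fold or more apart. CELF2, a splicing regulator, had 0 counts in KMS12BM and 182 (46.3 CPM) in KMS12PE, and the histone gene HIST1H1B had 1.05 and 88.3 CPM. MGST1, a microsomal glutathione transferase, had 8 counts in KMS12BM and 99.7 CPM in KMS12PE. In the other direction IQGAP2, a cytoskeletal scaffold, had at 1 of its starts 36.6 CPM in KMS12BM and 0 in KMS12PE, DDAH1, which breaks down an inhibitor of nitric oxide synthase, 75.7 and 1.27, and FAM213A 45.0 and 0.254. KMS12BM also had 6 counts over 4 neighbouring starts on chromosome 10, of KIAA1217, ARHGAP21 and PRTFDC1, where the median of the lines gave 225. Each value comes from 1 library, so no test was made.

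Neighbouring switching promoters were weakly alike. The median phi over the lines was 0.184 for 306 pairs within 10 kb, 0.199 for pairs 10 to 100 kb apart, 0.158 up to 1 Mb and 0.108 up to 10 Mb, against 0.0594 for pairs on different chromosomes.

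The lenalidomide libraries, which the selection did not use, gave a second look at 6 lines. The line's own untreated library had the same call at 76.2% (RPMI8226) to 85.0% (MM1S) of the 4861 promoters, and it was the nearest of the 22 untreated libraries for 6 of 6. The mean was 82.4%, against 57.2% over the 30 pairs of different lines among these 6, a difference of 25.2 percentage points. At 5 CPM the means were 89.9% and 64.6%. RPMI8226, with the lowest share, had 2117764 counts untreated and 4248017 with lenalidomide, and 3230 open promoters against 2175. Over the 241 promoters with a 2-fold gap the same call was found at 88.8% to 98.3%, with a median of 96.5%. Promoters open in an untreated line had 1.69 more on the log2(CPM + 1) scale in its lenalidomide library than closed ones did, averaged over 4358 promoters that were open in some and closed in others of the 6, and 92.4% of these had the higher mean in lines open when untreated.

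**Figure D5:**
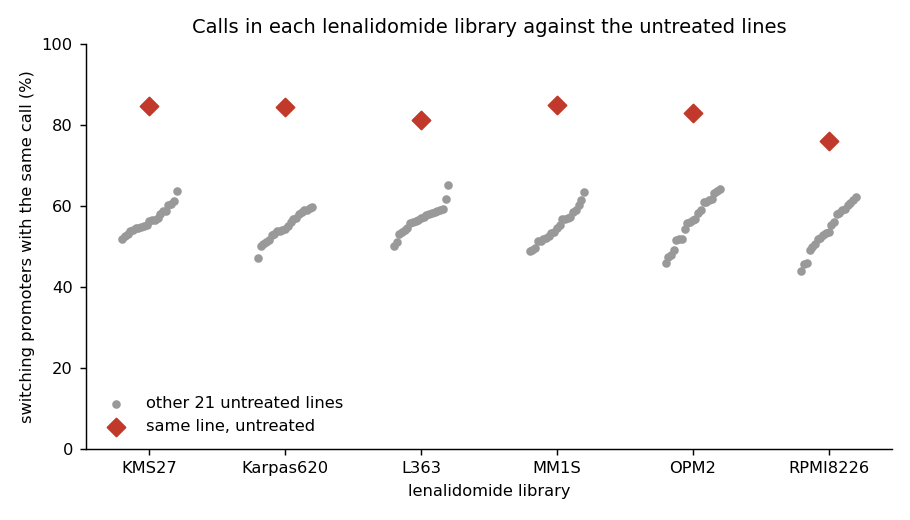
Percent of the 4861 switching promoters with the same call in each lenalidomide library and in each untreated library, with the same line as a red diamond and the 21 other lines as grey points. The own line lies at 76.2% to 85.0%, above every other line in 6 of 6 libraries.

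Some of the genes named above are given here with lenalidomide. Each was again high in the lines where it was high when untreated and lower in the other lines, though its level changed in places. In the lenalidomide libraries of MM1S and OPM2, lines of the branch of 9, CDH2 had 45.4 and 25.3 CPM, and in those of KMS27, Karpas620, L363 and RPMI8226 it had 3.76, 0.391, 0 and 7.77. KLF4 had 37.4 and 31.7 CPM in MM1S and OPM2 and again 50.5 in Karpas620, with 5.13, 1.38 and 5.41 in KMS27, L363 and RPMI8226. KHDRBS2 had 79.5 and 66.0 CPM in MM1S and OPM2 and 0.783 to 13.3 in the other 4. CHRM3 had 106 CPM in KMS27 and 51.2 in L363, and 0.363 to 4.52 in the others, and TCF4 had 52.3 in KMS27 and 0.922 to 5.09 in the others. TRIM58 had 92.2 CPM in OPM2 and 48.5 in RPMI8226, the lines open when untreated, and 1.09 to 9.58 in the rest.

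Few switching promoters differed between the untreated and lenalidomide libraries. Of 3895 that passed the filter on low counts in these 12 libraries, 99 rose (2.54%, against 4.17% of all regions tested) and 21 fell (0.539%, against 1.22%), by edgeR's quasi-likelihood test with the line as a block and adjusted p below 0.05. An unadjusted p below 0.05 was found for 481. Of the raised, 69 were higher in all 6 lines, and of the lowered, 13 were lower in all 6. The median change was 0.03 on the log2 scale, against -0.01 for all regions tested. Among always-open starts 50 of 5295 rose and 34 fell, and among regions away from a start open in 5 to 17 lines 752 of 16769 rose and 245 fell. The calls at switching promoters depended on the method. DESeq2 called 49 raised and 3 lowered, and leaving out a line gave as few as 55 raised (without MM1S) and 7 lowered (without L363).

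POLR1A, the large subunit of RNA polymerase I, rose most, after GTF2I, among the called promoters that were higher in all 6 lines. Of 7 stretches of 32 bases over its region, 7 occurred once in the genome. POLR1A went from 1.35 to 7.53 CPM in KMS27, from 1.39 to 5.09 in Karpas620 and from 3.06 to 7.84 in L363. It reached 40.3 from 8.93 in MM1S, 30.3 in OPM2 and 77.7 from 33.5 in RPMI8226. Every line was higher with lenalidomide, and another start of POLR1A was open in at least 18 untreated lines. The rise was 1.51 ± 0.20 (log2, 6 lines, edgeR adjusted p = 7.47e-06). Here and below, ± gives a standard error taken as the change divided by the square root of edgeR's quasi-likelihood F. It was not computed from the 6 line changes alone. C10orf10, a gene induced by progestin and glucocorticoid, rose by 1.44 ± 0.27 (edgeR adjusted p = 0.000622), from 0.337, 0.694, 6.12, 19.6, 6.78 and 18.4 CPM to 4.10, 12.1, 36.4, 30.1, 25.8 and 21.2 in the same order of lines. GTF2I had a larger change, 2.14 ± 0.28 (edgeR adjusted p = 6.37e-06), but 0 of 7 stretches of 32 bases over its region occurred once in the genome, so the origin of its reads is uncertain.

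Among the called promoters lower in all 6 lines, the largest falls were those of TATDN3, RGPD5 and NSMF. TATDN3, a putative deoxyribonuclease, fell by 0.98 ± 0.24 (edgeR adjusted p = 0.00968), and its untreated and lenalidomide CPM were 3.71 and 2.74 in KMS27, 15.6 and 6.65 in Karpas620, 5.61 and 0.922 in L363, 7.55 and 3.27 in MM1S, 2.61 and 1.36 in OPM2 and 50.5 and 31.1 in RPMI8226. Its adjusted p by DESeq2 was 0.0886. NSMF, which carries signals from synapse to nucleus, fell by 0.89 ± 0.25 (edgeR adjusted p = 0.0309, DESeq2 0.257). RGPD5 fell by 0.90 ± 0.23 (edgeR adjusted p = 0.0128, DESeq2 0.119), with 0 of 7 stretches found once, since it has near-identical copies. With a line left out, edgeR's adjusted p of RGPD5 was 0.0818 without MM1S and 0.0880 without OPM2, and that of NSMF 0.0512 without KMS27, 0.0634 without Karpas620, 0.107 without L363 and 0.119 without MM1S.

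Among the interferon-stimulated genes, 4 of 12 switching promoters tested rose and 0 fell, with a median change of 0.53 over the 12, against 2.54% of all switching promoters raised and a median of 0.03. RSAD2, the antiviral enzyme viperin, rose by 0.93 ± 0.22 (edgeR adjusted p = 0.00684, higher in 5 of 6 lines), from 5.10 to 22.6 CPM in L363 and from 21.9 to 58.8 in OPM2 but from 13.7 to 8.95 in RPMI8226. MX2, which traps retroviral capsids, rose by 0.84 ± 0.22 (adjusted p = 0.0178 by edgeR, 6 of 6 lines), and the influenza restriction factor MX1 by 0.81 ± 0.24 (adjusted p = 0.0374 by edgeR, 5 of 6). This was the start of MX1 open in 10 untreated lines, and not its switching start open in 14. USP18, which removes the ubiquitin-like ISG15, rose by 0.78 ± 0.23 (adjusted p = 0.0326 by edgeR, 6 of 6). With a line left out, edgeR's adjusted p of RSAD2 was 0.0829 without MM1S and 0.0867 without OPM2, and that of MX2 was 0.0646 and 0.143 without the same lines. For MX1 it was 0.123 without Karpas620, 0.0788 without L363, 0.259 without MM1S and 0.0655 without OPM2, and for USP18 0.127 without KMS27, 0.144 without Karpas620, 0.0539 without L363 and 0.0789 without MM1S. By DESeq2 the adjusted p of MX2, MX1 and USP18 was 0.108, 0.237 and 0.143.

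Single immune genes of the other lists passed the test. The granzyme gene GZMA rose by 1.33 ± 0.29 (edgeR adjusted p = 0.00304, 5 of 6 lines), the co-stimulatory ligand CD86, at 1 of its 2 switching starts, by 1.09 ± 0.26 (edgeR adjusted p = 0.00698, 6 of 6), the cyclooxygenase PTGS2 by 0.68 ± 0.16 (edgeR adjusted p = 0.00618, 6 of 6) and HLA-DQB1, at 1 of its 2, by 0.82 ± 0.24 (edgeR adjusted p = 0.0328, 6 of 6). The phosphatase gene DUSP22 fell by 0.99 ± 0.27 (edgeR adjusted p = 0.0199, 5 of 6 lines) at 1 of its 2 switching starts, while another start was open in 21 untreated lines, and ADPRHL1 fell by 0.34 ± 0.09 (edgeR adjusted p = 0.0225, 6 of 6). The leucine zipper gene TSC22D1 rose by 0.87 ± 0.24 (edgeR adjusted p = 0.0272, 4 of 6). Leaving out a line took the edgeR call from CD86 (adjusted p = 0.0571 without KMS27, 0.0602 without L363, 0.0512 without MM1S) and PTGS2 (0.0524 without L363, 0.0885 without MM1S). It took it also from HLA-DQB1 (edgeR adjusted p = 0.136 without KMS27, 0.207 without L363, 0.0702 without MM1S, 0.0813 without OPM2) and TSC22D1 (0.114 without Karpas620, 0.206 without L363, 0.141 without MM1S). DUSP22 lost it without Karpas620, L363 or MM1S (edgeR adjusted p = 0.0581, 0.0673 and 0.0604) and ADPRHL1 without Karpas620 or OPM2 (0.0804 and 0.145). GZMA kept it with each line left out. By DESeq2 the adjusted p was 0.0674 for CD86, 0.169 for HLA-DQB1, 0.222 for TSC22D1, 0.130 for DUSP22 and 0.268 for ADPRHL1. Of the 8 tested switching promoters of MHC class II genes 1 rose, of 19 of adhesion and surface genes 1 rose, and of the 8 of B cell genes and the 64 of chromosome 19 zinc finger genes 0 rose or fell by this test. Against the 2.54% raised and 0.539% lowered of all switching promoters, these counts are too small to set the lists apart.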

How the data were processed

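ATAC-seq was measured in 28 libraries of 22 cell lines. Per the submitters' processing notes and the study's methods, whose description covers ChIP-seq as well, the authors aligned reads to GRCh37 with Bowtie2 2.2.6, handled them with SAMtools 1.7 and called peaks with MACS2 at q 0.01. The methods state that putative PCR duplicates were marked. Their removal, shifting of reads and whether reads or fragments were counted for ATAC-seq are not given in the sources used here. The authors deposited raw counts per region, for 154985 autosomal regions merged over the lines, and a table of each library's own peaks, whose values are not defined and were used only as above 0 or not. The separate peak and coverage files were not used, and 0 columns of per-sample values lacked a sample.

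Counts were scaled to CPM by the total in regions (1599857 to 5564534 counts), and log2 values used a pseudocount of 1. Depth limits the calls, as the number called open followed it. Calls were compared by phi and average linkage (Python 3.11.15, numpy 2.4.6, pandas 2.3.3, scipy 1.17.1). Lenalidomide was tested in 6 untreated and 6 lenalidomide libraries on the deposited counts by edgeR 4.0.16 (R 4.3.3, limma 3.58.1; quasi-likelihood, TMM, filterByExpr, Benjamini-Hochberg over all regions tested, threshold 0.05) and checked on simulated data. The pairing comes from the cell line itself, which was the block. DESeq2 1.42.0, no block, other filters and scaling, other limits on the number of lines and leaving out lines were alternatives, those without KMS34 or PE1 being added after the data were seen. No line had a replicate library, so p-values set the mean change against how that change varied between lines. This variation includes noise between libraries, and edgeR moderates it over the regions. A planned permutation over 720 matchings of lenalidomide to untreated libraries is given as values without its p, since the promoters were chosen with results known.

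Named promoters were the 10 with the widest gap, the 10 with the largest SD, those of 21 gene lists, the 3 largest rises and falls with lenalidomide in all 6 lines, those at 0 counts in at least 2 lines with 10 CPM or more in open lines, and the 3 most like HLA-K. The members and lists were chosen with earlier results of these data known. Sequences and annotation came from GRCh37 with GENCODE v44lift37, which held 98.2% of the gene IDs and a transcript start at 78.7% of the starts. Some promoters and sequences are not reported here. Copies in the genome were counted for 7 stretches of 32 bases per region.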

Additional observations from a re-analysis of the deposited data

Results flagged for a closer look

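The MX2 promoter changed by 1.28 on the log2(CPM + 1) scale with lenalidomide in OPM2, against 0.33 to 0.68 in the other 5 lines. Its gap to the nearest line was 0.63 of the range over the 6 lines, just above Dixon's critical value for that number. It was the only such case among 18 sets of 6 line values examined, and chance gives about 1 in 20. The sets were the changes of single promoters and the share of same calls. Without OPM2 the rise of MX2 was 0.68 by edgeR (adjusted p = 0.143).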

How the results depend on the processing

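The share of start regions open in some lines only moved from 27.0% to 24.1% with open set at 5 CPM, 24.7% with starts within 1000 bp, 26.1% without KMS34 and 25.6% without PE1. KMS12BM and KMS12PE, second among the pairs by phi, were at place 5 by the Jaccard index, 1 without KMS34 and 1 without PE1. The lenalidomide calls were the most sensitive. Against 99 raised and 21 lowered promoters with the line as a block, DESeq2 called 49 and 3, of which 48 and 2 were shared. Without the replicate block, which gives up the pairing by line, edgeR called 0 raised and 0 lowered, with 14 and 0 at an unadjusted p below 0.05. Leaving out a line gave 55 (MM1S) to 125 (RPMI8226) raised and 7 (L363) to 24 (RPMI8226) lowered, with 64 raised without KMS27, 9 lowered without Karpas620, 10 without MM1S and 13 without OPM2. No filter on low counts gave 131 and 17, and no TMM scaling 96 and 21. Promoters with open lines above closed lines numbered 1195 and 1355 with TMM. The difference in same calls between own and other lines, 25.2 points, ran from 24.4 to 26.4 when a line was left out. Over the named regions and the alternatives together, 103 lenalidomide changes kept their side of the threshold, 65 lost the call (17 of them without the block, 11 by DESeq2, 11 without MM1S and 8 without L363) and 0 turned in direction. The causes were not tested. Depth limits calls at low CPM, and each line rests on 1 library.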
